A study of Homo sapiens with 3 samples.

Results

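The arrays labelled MTf/B1 and MTf/B2, called B1 and B2 here, were set directly against each other. Both carried total RNA of SK-Mel-28 cells, a long-established line from a human melanoma, after stable transfection with pSilencer 3.1-H1 neo, a plasmid that transcribes a short hairpin RNA from the H1 promoter. On both arrays the hairpin was directed at melanotransferrin (MTf, gene symbol MELTF), an iron-binding relative of transferrin held at the cell surface. The sample labels put its target at nucleotides 2048 to 2066 of the transcript and the design text at 2031 to 2049, which was not settled here. The remaining array of the 3, from cells with a scrambled hairpin in the same vector, was used only to show on which side of it B1 and B2 lay. The labels do not say what B1 and B2 stand for, or whether they were separate clones, cultures or extracts. With 1 array a side there was no spread between replicates and no test, so each difference is one between these arrays and may be technical.

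Probe sets entered where the signal, a linear intensity, was at least 200 on B1, on B2 or on both. This kept 28834 of the 54613 probe sets that are not controls (52.8%). Of these, 24313 reached 200 on both arrays, 2962 were below it on B1 and 1559 were below it on B2. Within 5% of the threshold, the 682 probe sets just inside had median signals of 173.4 on B1 and 202.1 on B2, and the 676 just outside had 164.7 and 191.6. The annotation named 1 gene for 23892 of the kept probe sets, several for 1130 and none for 3812. These stood for 12869 genes, each taken at its brightest probe set. Differences are given as log2 of B2 minus log2 of B1, with signals raised to at least 200 first, so that a positive value is a brighter signal on B2. Where a side lay below 200 the difference is a lower bound, and a fold is then written as "at least".

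In a dividing culture, E2F transcription factors turn on the genes for DNA replication and nucleotide supply before S phase, and a later wave of mitotic genes follows through B-MYB and FOXM1 with the MuvB complex. Cholesterol synthesis is turned on by the membrane-bound factor SREBP2 when the endoplasmic reticulum is short of sterol. ATF4 is translated when amino acids run low or the secretory pathway is stressed, and turns on amino acid transporters, synthetases and stress regulators. In RNA from a bulk culture, fewer cells in a state and less RNA per cell in that state cannot be told apart.

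MELTF, the hairpin's target, was read by 4 probe sets above the threshold. The brightest gave 18968 on B1 and 18974 on B2, against 32608 on the scrambled array, so that B1 and B2 were level. The second gave 10567 on B1 and 11199 on B2, against 8284 on the scrambled array, again with B1 and B2 close together but here above scrambled. A dim probe set differed, with 699.7 on B1, 284 on B2 and 915 on the scrambled array, a log2 difference of -1.30. The fourth gave 694 on B1 and 666 on B2.

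The quality controls set B1 apart in ribosomal RNA. The 3 probe sets for 18S ribosomal RNA gave 2848 to 3614 on B1, 684 to 756 on B2 and 710 to 902 on the scrambled array. The ratio of B1 to B2 was therefore 4.16 to 4.98 for 18S, and over all 5 ribosomal controls above 200 it ran from 1.83 to 4.98 with a median of 4.16. Other controls were close. The log2 difference was 0.14 to 0.17 for GAPDH and 0.054 to 0.14 for beta-actin, and the 42 spiked-in controls had a median of 0.042 and a range of -0.30 to 0.32. The 3′ to 5′ signal ratio, a measure of RNA integrity, was 1.01 on both arrays for GAPDH, and 1.77 on B1 and 1.87 on B2 for beta-actin. Each array had been scaled before deposit to a trimmed mean of 1000.1. The part of ribosomal RNA in the differences that follow was not tested.

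**Figure D1:**
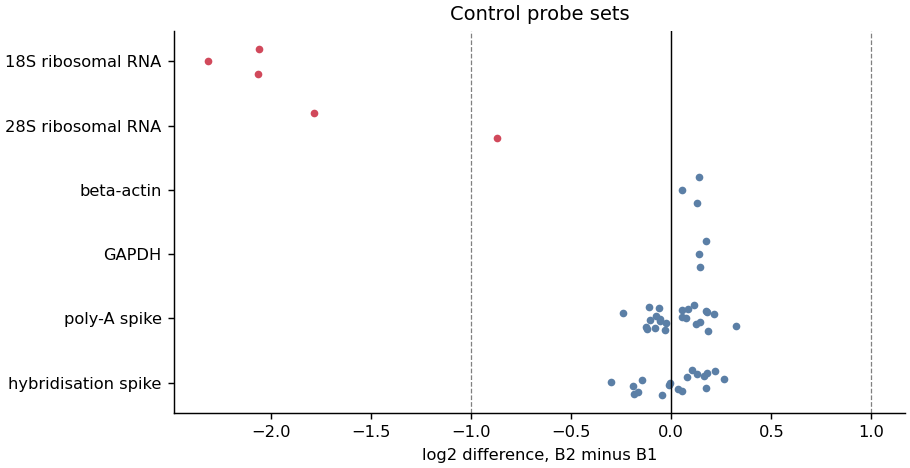
Log2 difference between B2 and B1 for each control probe set with a signal of at least 200 on B1 or B2, by kind; each point is 1 probe set, the solid line marks no difference and the dashed lines a 2-fold difference. The ribosomal points lie between -2.32 and -0.87, while the spikes, GAPDH and beta-actin lie between -0.30 and 0.32.

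Across the kept probe sets the arrays were alike (Pearson's r of 0.974 over 28834 probe sets on the floored log2 scale, all from the same chip design). The median log2 difference was 0.03, and the 5th and 95th percentiles were -0.68 and 0.74. At least a 2-fold difference was seen for 493 probe sets higher on B2 (1.71%) and 481 higher on B1 (1.67%). That balance depends on scaling, since removing an intensity trend by loess gave 386 higher on B2 and 603 higher on B1. B1 and B2 each stood further from the scrambled array than from each other, with 8.83% and 11.4% of probe sets at least 2-fold from it against 3.38% between them.

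By genes, 266 of 12869 were at least 2-fold higher on B2 (2.07%) and 133 on B1 (1.03%). At any size, 7310 genes were higher on B2 (56.8%) and 5555 on B1 (43.2%), and the median gene stood at 0.05. A gene that reached 200 on only 1 array had its direction fixed by that rule, and among the 11381 genes above 200 on both arrays 54.4% were higher on B2. With no replicates, the only spread at hand is that between probe sets of one gene. For the 6202 genes with several probe sets, the SD of their log2 differences had a median of 0.225 and a 90th percentile of 0.55. Of the 173 2-fold genes with other probe sets, 141 had all of them on the same side and 23 had none there. Among probe sets that were not their gene's brightest, the balance was turned round, with 129 of 11023 at least 2-fold higher on B2 (1.17%) and 270 higher on B1 (2.45%). Only 47 of those 270 belonged to a gene whose brightest probe set was at least 1.5-fold higher on B1, and 78 belonged to a gene whose brightest probe set lay above 0.

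**Figure D2:**
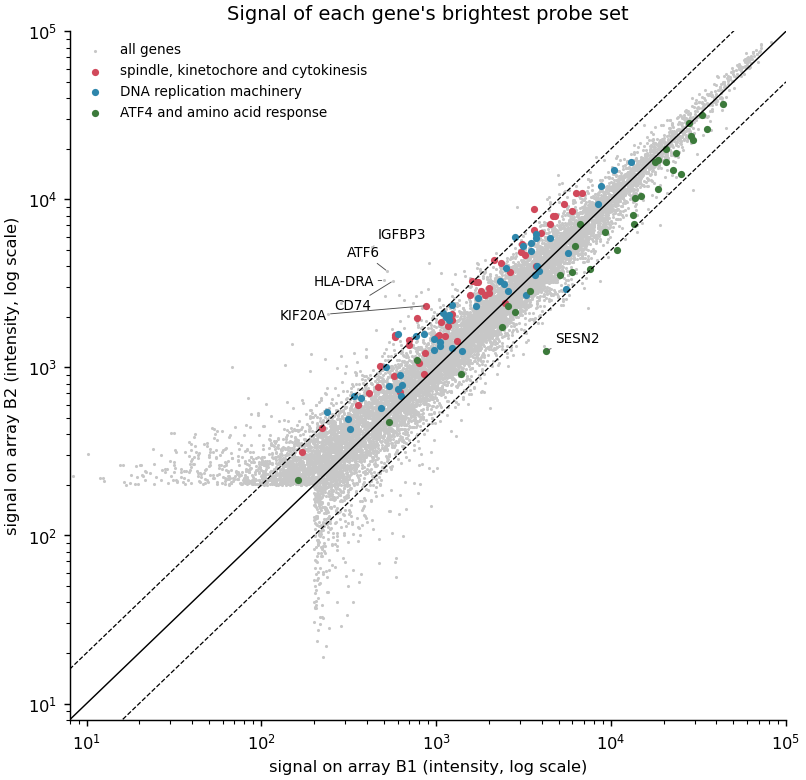
Signal on B1 (horizontal) and B2 (vertical) of each gene's brightest probe set, both in intensity on log axes; grey points are the 12869 genes, coloured points are 3 gene lists, the solid line marks equal signal and the dashed lines a 2-fold difference. Spindle and replication genes lie mostly above the line and genes of the ATF4 response mostly below it, and IGFBP3 is at 429.7 on B1 and 5231 on B2.

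The largest coordinated difference was in mitotic genes, which were dimmer on B1 than on B2. Of the 38 listed mitotic kinases, cyclins and checkpoint genes, 37 passed the signal rule and 35 of those were higher on B2, against 56.8% of all genes. Above 200 on both arrays, it was 34 of 35. Their median was 0.59, and 19 were at least 1.5-fold higher on B2, against 9.71% of all genes. CCNB1, the cyclin B1 that drives entry into mitosis, gave 4488 on B1 and 9589 on B2, a log2 difference of 1.10. It was the only gene of that list past 2-fold. CDK1, the kinase that cyclin B activates, gave 3139 on B1 and 5519.7 on B2 (0.81), and its other probe sets above the threshold gave 0.76 and 0.76. AURKA, the centrosomal Aurora kinase, gave 5651 on B1 and 9069 on B2 (0.68), while its other probe sets read 0.53 and -0.29. PLK1, the Polo-like kinase, was closer, with 772 on B1 and 943 on B2 (0.29). The exceptions were CKS2, a small CDK subunit with 28994 on B1 and 22694.5 on B2 (-0.35), and INCENP, with 268 on B1 and a signal below the threshold on B2.

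Spindle, kinetochore and cytokinesis genes differed more. Of 53 listed, 51 passed, 50 of these were higher on B2, 37 by at least 1.5-fold and 9 by at least 2-fold, with a median of 0.73. The shares of all genes were 56.8% higher on B2, 9.71% by at least 1.5-fold and 2.07% by at least 2-fold. KIF20B, a kinesin of cytokinesis, gave 580.4 on B1 and 1561 on B2 (1.43). KIF20A, the kinesin that carries the chromosomal passenger complex to the midzone, gave 875 on B1 and 2328 on B2 (1.41). CENPE, the kinetochore motor, gave 577 on B1 and 1515 on B2 (1.39). B2 was thus above B1 by a like amount for these 3 motors. NDC80, the kinetochore's microtubule anchor, gave 779.7 on B1 and 1977 on B2 (1.34), and its partner SPC25 gave 701 on B1 and 1446 on B2 (1.04). ANLN, the anillin of the cleavage furrow, gave 3630.5 on B1 and 8756 on B2 (1.27). KIF15, a kinesin that helps keep the spindle bipolar, gave 475 on B1 and 1024.5 on B2 (1.11), and ASPM and CEP55 were just past 2-fold. The proliferation marker MKI67 gave 1696 on B1 and 3229 on B2 (0.93), with 0.62 to 1.33 over its 4 probe sets. TOP2A, the topoisomerase that untangles sister chromatids, gave 4769 on B1 and 7945 on B2 (0.74). NCAPD3, a condensin subunit, was the only gene of this list lower on B2, with 2484 on B1 and 2415 on B2.

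By list medians, B1 lay further from the scrambled array than B2 did in both mitotic lists. B1 had the lowest signal of the 3 arrays for 28 of the 37 mitotic kinases and cyclins and for 42 of the 51 spindle genes. Of all 12869 genes, 7310 were higher on B2 than on B1, and B1 was the lowest array for 3403. Both lists were mostly higher on B2 than on B1, which by itself favours a lowest B1 and a highest B2. CCNB1 on the scrambled array was 8347 and CDK1 was 9164, both well above B1. CDK1 on B2, at 5519.7, was also well below scrambled. B2 was the highest array for 21 of the 37 mitotic kinases and cyclins and 35 of the 51 spindle genes, against 5692 of all 12869 genes. Summed signals of the mitotic kinases and cyclins were 129620 on B1, 168505 on B2 and 197610 on the scrambled array. By that measure B2 was below scrambled too. Against scrambled, the median of the spindle list was -0.51 for B1 and 0.25 for B2, and the median of the mitotic kinases was -0.54 for B1 and 0.10 for B2. These pairs of values share the scrambled array.

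**Figure D3:**
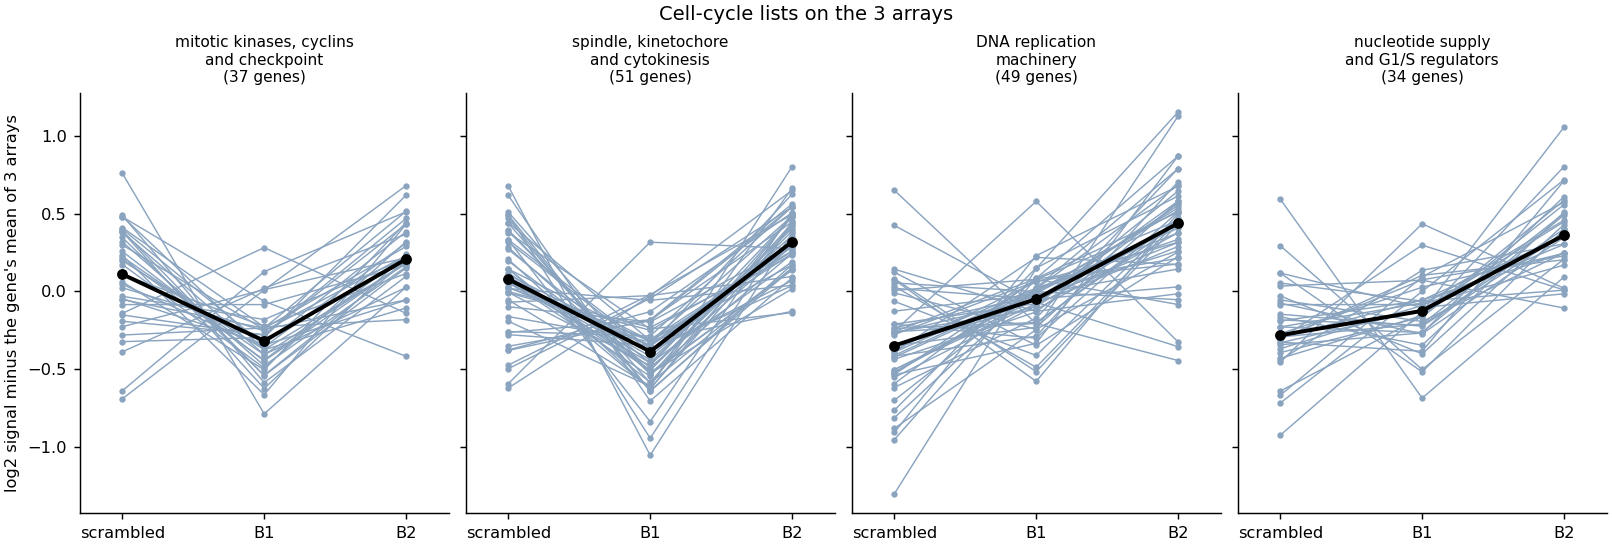
Signal of each gene of 4 cell-cycle lists on the scrambled, B1 and B2 arrays, as log2 of the signal (raised to at least 200) minus the gene's mean over the 3 arrays; thin lines are genes and the thick line is their median. In the mitotic and spindle lists B1 is the low array, and in the replication and nucleotide lists B2 is the high array.

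The mitotic promoters were read for the elements known to time this wave. The cell-cycle genes homology region (CHR), spelled TTTGAA, is bound by the MuvB core, and CCAAT boxes, spelled CCAAT, are bound by NF-Y and often stand near it. Both were searched on either strand in the 250 bases before each RefSeq start (GRCh38.p14), in a table with 27305 promoters. CHR letters were present for 15 of 28 mitotic kinase and cyclin genes with a promoter there (53.6%) and 22 of 47 spindle genes (46.8%), against 13.6% of all promoters and 8.81% of those of all genes on the arrays' list. CCAAT was present for 71.4% and 63.8%, against 33.0% of all promoters and 35.3% of those of all genes on the arrays' list. It does not set the mitotic lists apart. The share was as high or higher in some other lists, such as endoplasmic reticulum chaperones (82.8%), histones (81.8%) and sterol synthesis (71.4%), and lower in many. The promoters of CDC20, the activator of the anaphase-promoting complex (1886 on B1 and 3632 on B2), and of SPC25 are shown because both hold CHR and CCAAT letters, which are in capitals as read on the gene's strand (TTCAAA is CHR on the other strand). CDC20 lies at chr1:43358731-43358980 on the plus strand and SPC25 at chr2:168890431-168890680 on the minus strand, both 5′ to 3′ up to the last base before the start.
CDC20: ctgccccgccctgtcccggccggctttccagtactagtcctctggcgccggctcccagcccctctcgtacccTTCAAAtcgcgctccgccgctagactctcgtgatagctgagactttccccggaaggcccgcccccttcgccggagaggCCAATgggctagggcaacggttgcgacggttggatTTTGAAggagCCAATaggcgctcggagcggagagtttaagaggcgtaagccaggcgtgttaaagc
SPC25: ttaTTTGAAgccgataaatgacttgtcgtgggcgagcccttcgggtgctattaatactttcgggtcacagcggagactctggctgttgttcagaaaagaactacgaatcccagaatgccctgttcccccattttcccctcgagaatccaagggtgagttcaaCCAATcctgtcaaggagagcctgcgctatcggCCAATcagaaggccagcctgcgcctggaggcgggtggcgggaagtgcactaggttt
In CDC20 a CHR match begins 65 bases and a CCAAT match 55 bases before the start, and in SPC25 the CHR match lies farther off, at 247 bases. A match describes letters only and is not evidence of binding.

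DNA replication genes were also brighter on B2. Of 50 listed, 49 passed, all of them above 200 on both arrays. Of these 43 were higher on B2, 20 by at least 1.5-fold and 4 by at least 2-fold, with a median of 0.50. Among all genes above 200 on both arrays 54.4% were higher on B2. Over all genes, 9.71% were at least 1.5-fold and 2.07% at least 2-fold higher on B2. GINS2, a subunit of the CMG helicase, gave 607 on B1 and 1569 on B2 (1.37). ORC1, the largest subunit of the origin recognition complex, gave 237 on B1 and 546 on B2 (1.20). RFC4, of the clamp loader, gave 2821 on B1 and 5963 on B2 (1.08). POLE2, the second subunit of DNA polymerase epsilon, gave 761 on B1 and 1527 on B2, just past 2-fold. The 6 MCM genes that form the helicase ring were all higher on B2, though none reached 2-fold. MCM2 gave 1089 on B1 and 2099.9 on B2 (0.95), the widest of them, and MCM6 gave 8768.5 and 11948 (0.45), the narrowest. MCM3 stood at 0.67, MCM4 at 0.46, MCM5 at 0.76 and MCM7 at 0.64. PCNA, the sliding clamp, gave 12914 on B1 and 16616 on B2 (0.36).

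RFC5, another clamp loader subunit, read the other way at its brightest probe set, with 5493 on B1 and 2937 on B2 (-0.90). Its other 2 probe sets read 0.53 and 0.55, as the rest of the list did, so RFC5 has no single direction here. The remaining genes lower on B2 were POLE3, ORC5, ORC2, DBF4 and ORC6, at -0.28 to -0.05.

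The replication list lay otherwise with respect to scrambled than the mitotic lists did. B2 was the highest of the 3 arrays for 42 of the 49 genes and B1 the lowest for 9. Over all 12869 genes these counts were 5692 and 3403. A list that is mostly higher on B2 than on B1 by itself favours a highest B2. The median against scrambled was 0.305 for B1 and 0.72 for B2, so both stood above it. POLE2 gave 279 on the scrambled array and MCM6 gave 3990. Whether the mitotic and replication lists differ from each other was not tested.

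Genes of nucleotide supply and the G1/S transition followed. Of 39 listed, 34 were named by the annotation and passed, and 31 were higher on B2, against 56.8% of all genes. Of these 17 were higher by at least 1.5-fold, against 9.71%, and 2 by at least 2-fold, against 2.07%. The list median was 0.58. CCNE2, a cyclin E that activates CDK2 at the start of S phase, gave 784.5 on B1 and 1787 on B2 (1.19), and its other probe set gave 1.17. TYMS, the thymidylate synthase, gave 5038 on B1 and 10762 on B2 (1.10). CCNE1 gave 548 on B1 and 991 on B2 (0.85), and E2F1 gave 459 on B1 and 766 on B2 (0.74). Both subunits of ribonucleotide reductase were higher on B2. RRM1 gave 7378 on B1 and 13124 on B2 (0.83), and RRM2 gave 9081 and 17137 (0.92). RB1, the retinoblastoma protein that restrains E2F, gave 4782 on B1 and 3588 on B2 (-0.41), and BRCA1 (-0.29) and CDK2 (-0.18) were also lower on B2.

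E2F letters, searched as TTTCCCGC and TTTNGCGC on either strand over the same 250 bases, were present for 15 of 42 replication promoters (35.7%) and 9 of 30 of the nucleotide and G1/S list (30.0%). The share was 2.91% of all promoters and 4.49% of those of all genes on the arrays' list. CHR letters were present in none of the 42 replication promoters. GINS2 and POLE2 are shown, as 2-fold genes of the list that hold an E2F match, in capitals. GINS2 lies at chr16:85688955-85689204 and POLE2 at chr14:49688215-49688464, both on the minus strand (GRCh38.p14, RefSeq).
GINS2: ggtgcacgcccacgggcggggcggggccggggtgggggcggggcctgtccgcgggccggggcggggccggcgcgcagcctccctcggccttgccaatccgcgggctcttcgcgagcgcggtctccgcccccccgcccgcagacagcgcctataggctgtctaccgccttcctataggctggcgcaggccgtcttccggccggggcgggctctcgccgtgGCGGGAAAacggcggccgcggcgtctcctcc
POLE2: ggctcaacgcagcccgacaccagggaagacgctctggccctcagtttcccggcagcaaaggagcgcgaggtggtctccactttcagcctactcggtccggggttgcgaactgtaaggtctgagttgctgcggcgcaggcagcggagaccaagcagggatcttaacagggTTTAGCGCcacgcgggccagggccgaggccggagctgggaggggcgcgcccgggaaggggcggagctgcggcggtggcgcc
The match begins 31 bases before the start in GINS2 and 81 bases before it in POLE2.

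The cyclin D axis, which links growth signals to E2F, did not share this shift. Of its 15 measured genes 11 were higher on B1, against 43.2% of all genes. None reached 1.5-fold in either direction, and the median was -0.04. CCND1, cyclin D1, gave 11343 on B1 and 10266 on B2 at its brightest probe set (-0.14). Its other probe set gave 8276 on B1 and 2919 on B2, 2.84-fold higher on B1, so the CCND1 probe sets disagree in size. CDKN1A, the CDK inhibitor p21, gave 696 on B1 and 560.5 on B2 (-0.31). Replication-dependent histone genes, whose messages end in a stem loop instead of a poly(A) tail, were measured for only 11 of 42 listed. Of these 8 were higher on B1, with H2AC6 at 2211 on B1 and 1119 on B2 (-0.98), and the median was -0.18.

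Sterol synthesis was the metabolic list with the widest difference. Of 22 listed enzymes 16 were measured, 14 were higher on B2, against 56.8% of all genes, and the median was 0.45. ACAT2, which makes the acetoacetyl-CoA that enters the pathway, gave 1709.9 on B1 and 3882.5 on B2 (1.18). IDI1, the isopentenyl diphosphate isomerase, gave 3880.1 on B1 and 7307.5 on B2 (0.91), with -0.04 to 0.82 at its other probe sets. SQLE, the squalene epoxidase, gave 3982 on B1 and 6519 on B2 (0.71), HMGCS1, the HMG-CoA synthase, gave 559.7 and 892 (0.67), and LSS, the lanosterol synthase, gave 1926 and 2666 (0.47). PMVK, the phosphomevalonate kinase, went the other way and past 2-fold, with 1801 on B1 and 709 on B2 (-1.34, 1 probe set).

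The genes that sense and move sterol were split. Of 20 measured, 13 were higher on B2, against 56.8% of all genes, and 7 on B1, with a median of 0.07. INSIG1, which holds the SREBP escort in the endoplasmic reticulum and is itself a target of SREBP, gave 1265.5 on B1 and 2598 on B2 (1.04), with 0.55 and 1.26 at its other probe sets. SREBF2, which encodes SREBP2, gave 1665 on B1 and 1551 on B2 (-0.10). NPC1, the lysosomal cholesterol exporter, gave 14281 on B1 and 10584.5 on B2 (-0.43). Fatty acid synthesis genes differed little, with a median of 0.14 over 20 genes and none past 1.5-fold. FASN gave 2188 on B1 and 2429 on B2 (0.15), and the desaturase SCD gave 11684 and 15151 (0.37). Of the sterol regulatory element only the spelling TCACNCCAC was searched. It was in none of 14 sterol synthesis promoters read and in 0.875% of all promoters. A spelling this rare is unlikely to be met in 14 promoters, so its absence does not show that they lack such elements.

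**Figure D4:**
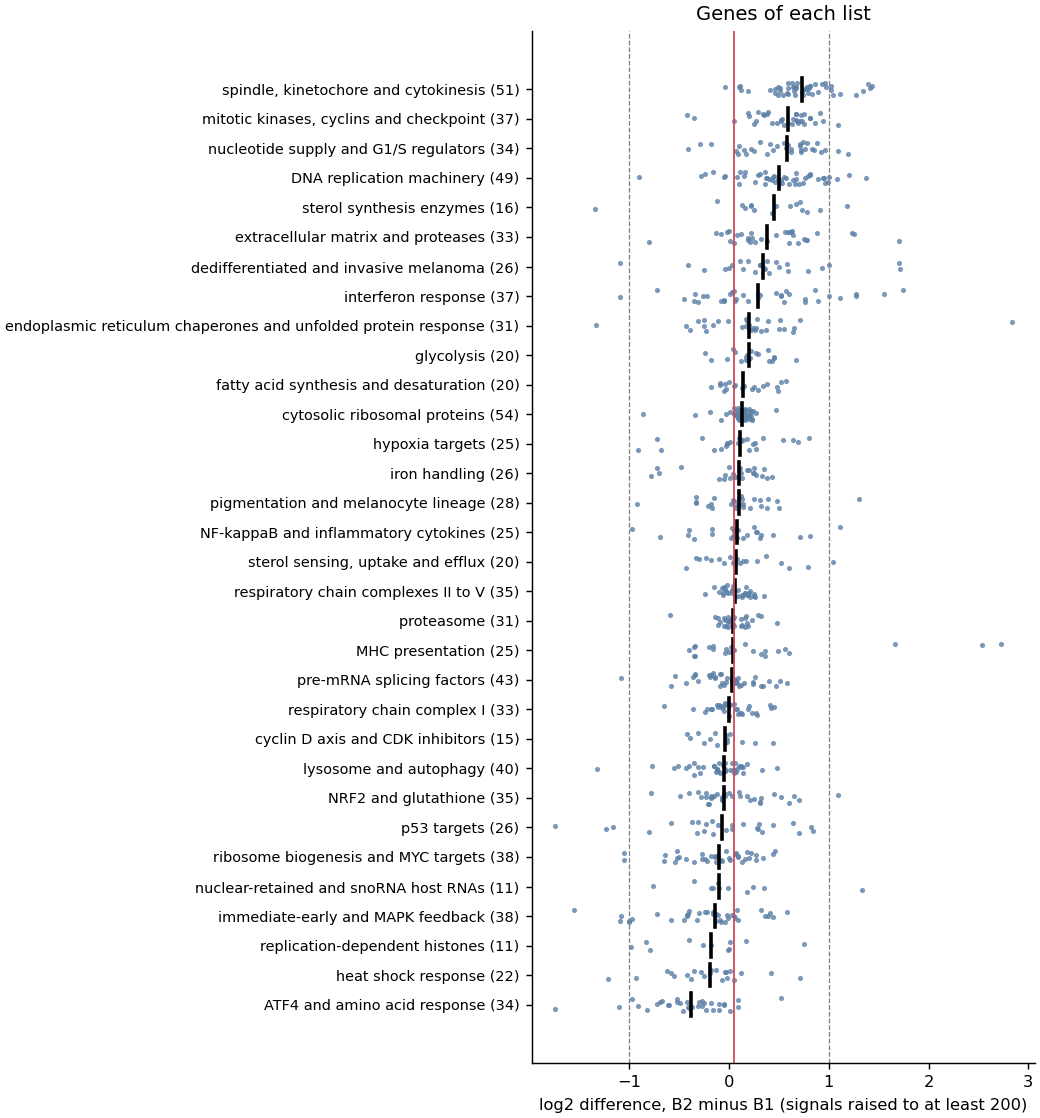
Log2 difference between B2 and B1 for the measured genes of each list, with the lists of cell type markers left out. Points are genes, with their number in brackets. The black bar is the list median, the red line the median of all genes and the dashed lines 2-fold differences. Signals were raised to at least 200, so points of dim genes are lower bounds. Among the lists drawn, the 4 cell-cycle lists and the sterol synthesis list have the highest medians, 0.73 to 0.45, and the ATF4 list the lowest, -0.38.

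The ATF4 and amino acid response was the list furthest towards B1. Of 36 listed genes 34 passed and 30 were higher on B1, against 43.2% of all genes, 10 by at least 1.5-fold against 4.69%, with a median of -0.38. SESN2, sestrin 2, an inhibitor of mTORC1 signalling that ATF4 and p53 both turn on, gave 4224 on B1 and 1259 on B2 (-1.75), and its other probe set gave -0.82. NUPR1, a stress-induced nuclear protein, gave 10799 on B1 and 5007 on B2 (-1.11). Short of 2-fold lay CTH, the cystathionine lyase, with 13500.2 on B1 and 7176 on B2 (-0.91). TRIB3, a pseudokinase that feeds back on ATF4, gave 25022 on B1 and 14094 on B2 (-0.83). DDIT3, the factor CHOP, gave 18499 on B1 and 11569 on B2 (-0.68). ATF4 itself, which is controlled mainly in translation, gave 43431 on B1 and 37071 on B2 (-0.23). VLDLR stood apart, with 772 on B1 and 1108 on B2 (0.52). Here B1 lay near scrambled and B2 below it, with list medians against scrambled of -0.07 and -0.44.

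The CARE element, which ATF4 binds with C/EBP partners, was searched as TGATGNAA on either strand. It was present for 4 of 30 promoters of the list (13.3%), against 3.19% of all promoters. ASNS, the asparagine synthetase, gave 22514.5 on B1 and 14854 on B2 (-0.60), and CHAC1, which degrades glutathione, gave 1388 on B1 and 909 on B2 (-0.61). Their promoters are shown as the ones in which this element is best known, with the match in capitals. ASNS lies at chr7:97872409-97872658 on the minus strand and CHAC1 at chr15:40953221-40953470 on the plus strand (GRCh38.p14, RefSeq).
ASNS: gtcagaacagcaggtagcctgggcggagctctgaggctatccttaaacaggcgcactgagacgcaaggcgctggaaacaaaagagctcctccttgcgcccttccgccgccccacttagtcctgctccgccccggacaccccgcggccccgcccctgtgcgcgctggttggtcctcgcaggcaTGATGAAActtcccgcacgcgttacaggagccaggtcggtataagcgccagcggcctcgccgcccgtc
CHAC1: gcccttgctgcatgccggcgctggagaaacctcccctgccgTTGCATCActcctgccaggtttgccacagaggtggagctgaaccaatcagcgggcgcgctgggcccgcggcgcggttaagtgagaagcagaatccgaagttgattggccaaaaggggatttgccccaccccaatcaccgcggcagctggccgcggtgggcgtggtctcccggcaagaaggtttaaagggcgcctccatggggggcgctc
The match begins 68 bases before the start in ASNS and 209 bases before it in CHAC1.

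Other stress lists were less uniform. Of 31 endoplasmic reticulum chaperones and unfolded protein response genes, 21 were higher on B2, against 56.8% of all genes, with a median of 0.20. ERN1, the sensor IRE1, gave 1836 on B1 and 726 on B2 (-1.34), but its other probe sets read -0.96 and 0.30. HSPA5, the chaperone BiP, was nearly level at its brightest probe set, with 39789 on B1 and 36809 on B2 (-0.11). Its other, dimmer probe set gave 0.50. ATF6, a sensor released from the membrane under stress, gave 524 on B1 and 3735 on B2 at its brightest probe set (2.83), but its other 3 probe sets lay at -0.9975 to -0.098, so no direction holds for the gene. Of 22 heat shock genes 17 were higher on B1, against 43.2% of all genes, with a median of -0.19. HSPA6, a strictly stress-induced HSP70, gave 2733 on B1 and 1180.4 on B2 (-1.21).

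Targets of p53 were split, 14 higher on B1, against 43.2% of all genes, and 12 on B2, with a median of -0.07. SESN2, described above, is among them. GDF15, a secreted stress cytokine, gave 1888 on B1 and 802 on B2 (-1.24), against 26790.0 on the scrambled array. PMAIP1, the BH3-only protein NOXA, gave 5299.6 on B1 and 2358.5 on B2 (-1.17). MDM2, a direct p53 target, gave 1473.5 on B1 and 1506 on B2 (0.03). Hypoxia targets were mixed too, with 14 of the 23 above 200 on both arrays higher on B2, against 54.4% of all such genes. VEGFA, the vascular growth factor, gave 6963 on B1 and 3689 on B2 (-0.92).

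Immediate-early genes, which MAP kinase signalling turns on within minutes, leaned towards B1. Of 42 listed 38 passed and 27 were higher on B1, against 43.2% of all genes. Of these 5 were at least 2-fold higher, against 1.03% of all genes, and the list median was -0.14. FOSB gave 589.5 on B1, while 73.4 on B2 was below the threshold, so the signal was at least 2.95-fold higher on B1. IER2 gave 10820.4 on B1 and 5073.5 on B2 (-1.09). The orphan nuclear receptors NR4A3, with 9559 on B1 and 4516 on B2 (-1.08), and NR4A1, with 4489 and 2238, were likewise at least 2-fold higher on B1 at their brightest probe sets, though the other NR4A1 probe set stood at 0.37. EGR1, a zinc finger factor, gave 14019.8 on B1 and 7001 on B2 at its brightest probe set, just past 2-fold, and -0.57 and -0.41 at the others. FOS itself gave 3455 on B1 and 3249.8 on B2 (-0.09), and the feedback phosphatase DUSP6 gave 10933 and 10788 (-0.02). The scrambled array was above both for most of the list, with medians against it of -0.72 for B1 and -0.85 for B2.

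**Figure D5:**
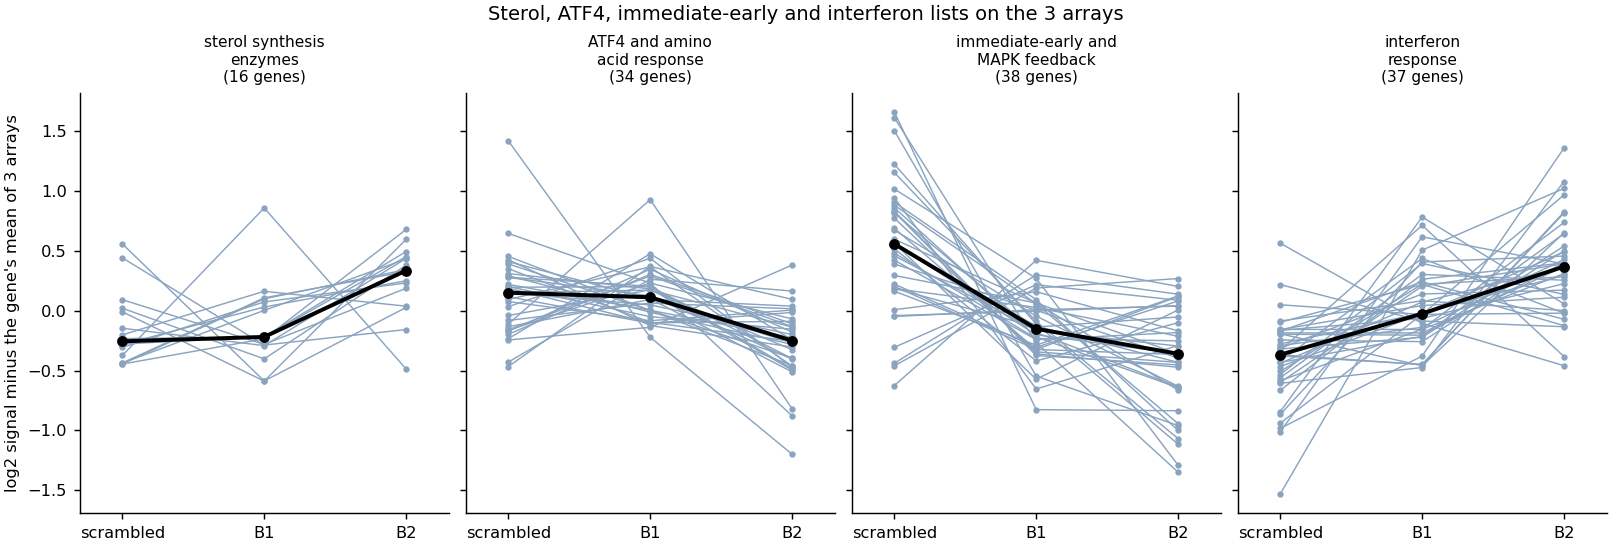
Signal of each gene of the sterol synthesis, ATF4, immediate-early and interferon lists on the scrambled, B1 and B2 arrays, as log2 of the signal (raised to at least 200) minus the gene's mean over the 3 arrays; thin lines are genes and the thick line is their median. B2 is the high array in the sterol and interferon lists and the low array in the ATF4 list, and the scrambled array is the high one in the immediate-early list.

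Interferon response genes were mixed, with some of them well above on B2. Of 45 listed 37 passed, 26 were higher on B2 against 56.8% of all genes, 5 by at least 2-fold, and the median was 0.29. Above 200 on both arrays, 24 of 35 were higher on B2 and the median was 0.187. Over the alternatives it ran from 0.137 to 0.436. IFIT1, which binds foreign RNA caps, gave 304 on B1 and 1014 on B2 (1.74), against 14.2 on the scrambled array. CMPK2, a mitochondrial nucleotide kinase, gave 219 on B1 and 643 on B2 (1.55). IFITM1 gave 234 on B1 and 565 on B2 (1.27), IFITM3 gave 1783.5 and 3853 (1.11), and both encode membrane proteins that block viral entry. IRF1, a factor of the interferon gamma response, gave 331.5 on B1 and 798 on B2 (1.27). BST2, tetherin, went the other way, with 5482 on B1 and 2564 on B2 (-1.10), and IFI6 did so to a lesser degree (-0.73). ISG15 was nearly level, with 2444 on B1 and 2529.7 on B2 (0.05).

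Among antigen presentation genes, those of HLA-DR and CD74 stood apart. Of 25 measured genes 14 were higher on B2 and 11 on B1, near the 56.8% of all genes higher on B2. The list median of 0.03 was close to that of all genes. It turned to -0.014 after quantile normalization and -0.00708 after loess. HLA-DRA, the alpha chain of the class II molecule HLA-DR, gave 499 on B1 and 3293 on B2 (2.72), and its other probe set was at least 8.01-fold higher on B2. CD74, the class II invariant chain, gave 564 on B1 and 3263 on B2 (2.53). A dim CD74 probe set gave 154.0 on B1 and 204 on B2. HLA-DRB1, a beta chain of HLA-DR, gave 715 on B1 and 2256.5 on B2 (1.66). HLA-DRB4, which was not on the list, gave 67.9 on B1 and 1009.8 on B2, at least 5.05-fold higher on B2. Since HLA-DRB genes are near-identical copies, the beta chain probe sets may not tell them apart.

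The rest of class II differed less. HLA-DPA1 gave 7768.5 on B1 and 9183 on B2 (0.24), HLA-DMA gave 1941 and 2858 (0.56), and the class II transactivator CIITA gave 246 and 316 (0.36). Of class I, HLA-B gave 18172 on B1 and 17757 on B2 (-0.03), and its light chain B2M gave 42059.5 and 46806 (0.15). The peptide transporter TAP1 gave 1256 on B1 and 986 on B2 (-0.35).

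Of 46 listed extracellular matrix and protease genes 33 passed, with a median of 0.38, and 26 were above 200 on both arrays. Of those 26, 22 were higher on B2, against 54.4% of all such genes, with a median of 0.51. LOXL2, a lysyl oxidase that cross-links collagen, gave 396 on B1 and 1294 on B2 (1.71), the highest of the list. The related LOXL3, which was not on the list, gave 913 and 4169.6 (2.19). MMP1, the interstitial collagenase, gave 934 on B1 and 2226 on B2 (1.25), and COL9A3, a chain of collagen IX, gave 813 and 1914 (1.24). FN1, fibronectin, gave 40922 on B1 and 53107 on B2 (0.38). SPP1, osteopontin, gave 18092 on B1 and 10373 on B2 (-0.80), the lowest of the list.

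Genes of dedifferentiated and invasive melanoma had a median of 0.34 over 26 genes. Of the 21 above 200 on both arrays 17 were higher on B2, against 54.4% of all such genes, with a median of 0.33. WNT5A, a noncanonical WNT ligand tied to melanoma invasion, gave 84.1 on B1 and 655 on B2, at least 3.28-fold higher on B2, while its other probe set gave 0.13. EGFR gave 215 on B1 and 430 on B2, just past 2-fold, and its other 4 kept probe sets gave 0.33 to 0.95. INHBA, an activin subunit, gave 666 on B1 and 312 on B2 (-1.10), and -0.28 at its other probe set. AXL was below the threshold on B1, with 302 on B2.

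Melanocyte identity was alike on both arrays, and the labelled cell type held. Of the 10 melanocyte markers 9 were measured, with summed signals of 257232 on B1 and 278771 on B2. MLANA gave 63275 on B1 and 69169 on B2 (0.13), PMEL gave 60939.7 and 65576 (0.11), and TYR gave 35193 and 37555 (0.09). MITF, the lineage's master factor, gave 42992 on B1 and 34223 on B2 (-0.33). TYRP1, a melanosomal enzyme, differed most, with 5022 on B1 and 12370 on B2, 2.46-fold higher on B2 and both far below the 53204 of the scrambled array.

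Most listed markers of other cell types were below 200 or dim. Summed signals were 8955 on B1 and 8046 on B2 for 5 of 11 epithelial markers, 5715 and 6186 for 5 of 10 fibroblast markers, 1137 and 1076 for 2 of 11 leukocyte markers, and 285 and 460.0 for 1 of 8 endothelial markers. Among those below 200 on both arrays were EPCAM, CDH1, PDGFRA, PTPRC, CD3E, CD14, VWF and CDH5. Among the exceptions, ESRP1, an epithelial splicing factor, gave 5567 on B1 and 4656 on B2, and LUM, a matrix proteoglycan, gave 4850 and 4841. The keratin KRT18 gave 2483 on B1 and 2149 on B2. Others above 200 on both arrays at their brightest probe sets included KRT7 (617 and 722), COL1A1 (488 and 565), FCER1G (659 and 691) and LCP1 (478 and 385).

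The remaining lists lay nearer the median of all genes. Cytosolic ribosomal protein genes, which are among the brightest on the arrays, had 49 of 54 higher on B2 and a median of 0.13, near the 0.14 to 0.17 of the GAPDH controls. Their direction depended on scaling, with 36 higher on B2 after loess and 23 after quantile normalization. Glycolysis genes had a median of 0.20, with 17 of 20 higher on B2, against 56.8% of all genes. Respiratory chain complex I (median -0.00202), the other respiratory complexes (0.06), proteasome (0.04), splicing factors (0.03), lysosome and autophagy (-0.05), iron handling (0.10) and NRF2 targets (-0.05) lay close to the median of all genes. Ribosome biogenesis and MYC targets stood at -0.10, with 2 genes past 2-fold. ODC1, the first enzyme of polyamine synthesis, gave 14963 on B1 and 7224 on B2 (-1.05), and the nucleolar chaperone NPM3 gave 1296 and 622 (-1.06). Single members of other lists also passed 2-fold. IL1B, the inflammatory cytokine, gave 419 on B1 and 904.5 on B2 (1.11), and the aldo-keto reductase AKR1C2 gave 1767 and 3759 (1.09). GABARAPL1, an autophagy protein, gave 2557 on B1 and 1022.5 on B2 (-1.32), and the helicase DDX5 gave 2689 and 1272.5 (-1.08).

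The gene furthest apart was IGFBP3, which binds insulin-like growth factors outside the cell. It gave 429.7 on B1 and 5231 on B2, 12.2-fold higher on B2, and its other probe set was 6.03-fold higher. The scrambled array, with 1289, lay between them. TMEM47, a junctional membrane protein, gave 239.9 on B1 and 2073 on B2 (3.11, and 0.86 at its other probe set). SORBS2, an adaptor of the actin cytoskeleton, gave 285 on B1 and 2416 on B2 (3.08), and all 5 of its other probe sets were also higher on B2. The adhesion molecules NTM, with 507 on B1 and 2668 on B2 (2.40), and NEGR1, with 230.1 and 1116 (2.28), are related GPI-anchored proteins of the neuronal surface.

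Several signalling genes came next. PREX1, a Rac exchange factor, gave 615.5 on B1 and 2687 on B2 (2.13), and its other probe set gave 2.70. TGFA, a ligand of EGFR, gave 452 on B1 and 1677 on B2 (1.89), and PRKCA, protein kinase C alpha, gave 340.3 and 1223 (1.84). SLC12A7, a potassium-chloride cotransporter, gave 654 on B1 and 2534 on B2 (1.95), and TMEFF2, a membrane protein with an EGF-like domain, gave 285 and 1176 (2.04). The uncharacterised LOC101927166 gave 271 on B1 and 987 on B2 (1.86). Among genes below 200 on B1, B2 was at least 6.88-fold higher for FGD2, 6.03-fold for MATN2, 5.15-fold for MGP, 4.74-fold for DPYD, 3.18-fold for RGS11 and 3.11-fold for EPHB1. Other probe sets gave smaller differences for FGD2 (0.33 to 0.96) and DPYD (0.57 and 0.99), and among the genes above also for NEGR1 (0.09 and 1.59) and TMEFF2 (0.30).

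Genes furthest towards B1 had smaller differences and fewer supporting probe sets. OR2C3, an olfactory receptor gene, gave 1003 on B1 and 251.5 on B2 (-2.00). POLD4, the smallest subunit of DNA polymerase delta, gave 959 on B1 and 243 on B2 (-1.98). It was not on the replication list, most of which went the other way. EIF3C, a translation initiation subunit, gave 803 on B1 and 203 on B2 (-1.98). Each of these was read by 1 probe set. TNFRSF12A, the receptor of TWEAK, gave 7348 on B1 and 2263 on B2 (-1.70), against 25900.4 on the scrambled array. FKBP8, an immunophilin that anchors BCL2, gave 791 on B1 and 262 on B2 (-1.59), with -1.25 at its other probe set.

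For the other 9 of the 15 genes furthest towards B1, the log2 differences were -1.87 for TNKS2, -1.85 for MED18, -1.83 for RNA45SN5, -1.72 for LOC105370178, -1.66 for FBXO4, -1.64 for SLC16A7, -1.62 for SPRR2B, -1.58 for SRGAP2 and -1.52 for CACNG4. SESN2 completes the group. Among genes below 200 on B2, B1 was at least 4.64-fold higher for IDI2, 3.91-fold for DUS2, 3.34-fold for C2CD2L, 3.24-fold for RASD1, 3.09-fold for GLIS2, 3.08-fold for AXIN1 and 2.95-fold for ADAMTS10. The other DUS2 probe set was level, with 461 on B1 and 453 on B2. The other probe sets of TNKS2 stood at -0.53 and -0.09, and one of SLC16A7 at 0.02.

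Some RNA species that stay in the nucleus or nucleolus were brighter on B1, as the ribosomal controls were. RNA45SN5, the precursor of ribosomal RNA, gave 2033 on B1, 570.4 on B2 and 1072.5 on the scrambled array at its brighter probe set, and -0.02 at the other. MALAT1, a nuclear-retained RNA, gave 45219 on B1, 26559.7 on B2 and 29367 on the scrambled array (-0.77), and 9 of its 10 other measured probe sets were also higher on B1. The list of nuclear-retained and snoRNA host RNAs had 7 of 11 genes higher on B1, against 43.2% of all genes, and a median of -0.105. KCNQ1OT1 was below 200 on B1 and gave 504 on B2, at least 2.52-fold higher, and 0.15 at its other probe set. The part of ribosomal RNA in these values was not tested.

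Position along the genome, by RefSeq gene order, gave one stretch to name. In 503 windows of 25 consecutive measured genes, the median difference ran from -0.24 to 0.40, with 5th and 95th percentiles of -0.13 and 0.225. The highest was on chromosome 7 from MYO1G to ZNF736, with 20 of 25 genes higher on B2, against 56.8% of all genes. In it 5 were at least 2-fold higher, against 2.07% of all genes, namely ADCY1, EGFR, IGFBP3, RAMP3 and TNS3. The lowest was on chromosome 16 from HMOX2 to CIITA, with 15 of 25 higher on B1, against 43.2% of all genes. By chromosome, medians ran from -0.05 on chromosome 16 to 0.16 on chromosome 14.

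The scrambled array was nearer B1 than B2 for 200 of the 266 genes 2-fold higher on B2, and for 72 of the 133 higher on B1. The same count was not made over all genes, so these counts have no share to be set against. In 6 genes B2 was at least 2-fold above scrambled and B1 at least 2-fold below it, namely IGFBP3, SORBS2, HLA-DRA, NTM, MATN2 and HLA-DRB4. No gene had B1 above and B2 below by that measure. The first 4 had all 3 signals above 200, and the other 2 were below it on B1.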

How the data were processed

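The 3 human samples were each hybridised to 1 Affymetrix U133 Plus 2.0 array, and arrays B1 and B2 (1 a side) were compared. The deposited values are linear signal intensities, computed by the authors with GCOS 1.3 per the submitters' processing notes. In these deposited intensities every array had a mean of about 1000 after trimming 2% at each end, so each had been scaled as a whole. Detection calls were not used. The transcript annotation release behind the arrays' signals is not stated in these sources.

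Probe sets of at least 200 on either array were kept, signals were raised to 200, and log2 of B2 minus log2 of B1 was taken. A 2-fold difference was counted. Genes were named from the platform annotation where a probe set had 1 gene, and the brightest probe set stood for the gene. Entrez identifiers were looked up in RefSeq's GRCh38.p14 table, which changed 0 symbols and lacked 42 identifiers. The same table gave gene order and promoter sequences. The number of arrays limits the precision, and nothing says that B1 and B2 are separate cultures.

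The members and the 37 gene lists were chosen with earlier results of these data known. The rule for named genes took MELTF in every probe set, the 15 genes furthest apart in each direction with both signals above 200, the 8 largest lower bounds in each direction, up to 6 genes a list and direction past 2-fold, and defining genes of the main lists. Other genes, such as CKS2, RFC5, SPC25, CDC20, ASNS, CHAC1, MITF and LUM, were named after their values were seen, as a list's extremes, for their role or for their promoter. Some genes of the lists are not reported here.

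Alternatives changed the threshold and floor (100, 400), the handling of dim values (a pseudocount of 50), the scaling (median centring, quantile, loess), the probe sets used and the fold (1.5, 3). The counts were checked on simulated data. Python 3.11.15, numpy 2.4.6, pandas 2.3.3, statsmodels 0.14.6 and matplotlib 3.10.9 were used.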

Additional observations from a re-analysis of the deposited data

Results flagged for a closer look

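In 4 genes with all 3 signals above 200, B2 lay at least 2-fold above the scrambled array and B1 at least 2-fold below it, so the hairpin arrays departed from scrambled in opposite directions. The log2 difference between B2 and B1 was 3.606 for IGFBP3, 3.082 for SORBS2, 2.722 for HLA-DRA and 2.395 for NTM. With 1 array a group, this difference was not tested.

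The ribosomal RNA control probe sets are outside the gene comparison and were brighter on B1 than on the scrambled array. The ratio of B1 to scrambled was 3.51, 4.91 and 4.01 for the 3′, 5′ and middle probe sets of 18S, and 2.09 and 4.27 for the 5′ and middle probe sets of 28S. The third 28S probe set was below 200 on all 3 arrays.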

How the results depend on the processing

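No list median of at least 0.225 in size changed direction under the alternatives tried, nor did any 2-fold gene taken by the naming rule. Among all 2-fold genes, leaving out IDs ending _x_at or _s_at turned 1 of the 266 higher on B2 and 2 of the 133 higher on B1. The counts of features at least 2-fold apart depended on how dim signals were treated. A threshold and floor of 100 gave 1683 probe sets higher on B2 and 1077 on B1 (732 and 274 genes), one of 400 gave 197 and 263 (137 and 80 genes), and log2 of the signal plus 50 gave 1155 and 772 (521 and 207 genes). Leaving out probe sets with IDs ending _x_at or _s_at gave 344 probe sets higher on B2 and 270 on B1. At 1.5-fold there were 2529 and 1992 probe sets, and at 3-fold 59 and 61. Of the 266 genes higher on B2 and 133 on B1, 137 and 80 were still 2-fold apart at a floor of 400, 217 and 131 after loess, and 197 and 77 by the mean over a gene's probe sets. The medians of the 4 cell-cycle lists ranged from 0.436 to 0.736 over 8 alternatives, sterol synthesis from 0.308 to 0.476 and ATF4 from -0.40 to -0.292. Less settled were interferon (0.137 to 0.436), antigen presentation (-0.014 to 0.216), extracellular matrix (0.264 to 0.534) and immediate-early genes (-0.151 to -0.0839). Epithelial and endothelial markers moved at a floor of 400, to -0.209 and 0.20. No paired analysis was possible because each group has 1 array. Differences of genes near 200 are limited by signal over background, and the cause of these shifts was not tested.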
